A study of Mus musculus and Homo sapiens with 33 samples.

Results

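Cohesin, the 2 condensins and the SMC5/6 complex shape chromosomes for division, together with topoisomerase II, separase, securin and the proteins of the chromosome surface. The 34 genes described here encode these factors, were chosen by symbol, and all 34 were present among the 38924 Ensembl gene IDs of the count matrix. That matrix was made from poly(A)-selected RNA in 6 libraries of KPL cells, which are mouse cells from lung adenocarcinoma. For the 3 libraries named 4-OHT, cells had received 4-hydroxytamoxifen during 72 hours (the labels write the dose as 10 nm), which per the labels deletes Lin9, a core subunit gene of the MuvB complex. The 3 control libraries are named EtOH (ethanol) in the sample descriptions. None of the 6 libraries had 4-OHT without the deletion. Effects of 4-OHT itself, of the recombinase and of Lin9 loss therefore cannot be told apart. Details of the allele, of the recombinase and of the clones behind the line were not given in the sources used here. Nothing says that the 3 libraries of a group are separate cultures, and p-values therefore reflect only how much these libraries vary, possibly for technical reasons.

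Lin9 had 108, 107 and 101 reads in the 4-OHT libraries and 156, 124 and 159 reads in the control libraries, and passed in edgeR (adjusted p = 0.0011) with a log2 fold change of -0.49. This drop is partial, at 71.1% of control. A count over the full gene also includes exons that a deletion would leave in place, so it does not measure the extent of deletion. The cause of the partial drop was not tested. Library totals lay between 5894309 and 5913942 reads in the 4-OHT group and between 5859826 and 5876193 in the control group. The epithelial keratin gene Krt18 stood at 1536 to 1571 CPM (read counts scaled to a common library size) in 4-OHT and 1538 to 1579.9 CPM in control libraries. The defining alveolar genes Sftpc, Sftpa1 and Napsa had no read in any library, and the lung factor gene Nkx2-1 had 4.22 to 5.26 CPM in 4-OHT and 5.32 to 7.88 CPM in control libraries. Of 10 epithelial and alveolar markers, 6 were tested, Epcam (log2 fold change -0.38) and Cdh1 (-0.14) were called lower in edgeR, and Krt8 (0.06), Krt18 (0.00), Krt19 (0.04) and Nkx2-1 (-0.46) did not pass. Their summed level was 5464 to 5618 CPM in 4-OHT and 5488 to 5560.1 CPM in control libraries. Of 6 mesenchymal markers, 3 were tested, Vim (0.15) was called higher, and Col1a1 (-0.36) and Pdgfra (-0.06) did not pass. This list summed to 3069.9 to 3119 CPM in 4-OHT and 2782 to 2829 CPM in control libraries, nearly all of it Vim, and Thy1 and Col1a2 had at most 1 read in a library. Of 4 endothelial markers only Tek was tested, without a call, and the list summed to 8.48 to 8.60 CPM in 4-OHT and 7.36 to 9.94 CPM in control libraries. Of the immune markers, Cd68 was at 1.53, 3.04 and 2.55 CPM in 4-OHT and 4.11, 1.03 and 1.37 CPM in control libraries and was not called, Ptprc reached 0.509 CPM in 4-OHT and 0.685 CPM in control libraries, and Cd3e was at 0 in all 6. The part of these marker differences in the results below was not tested.

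SMC proteins are long coiled-coil ATPases that pair up and are closed into a ring by a kleisin subunit. Cohesin, built on SMC1A and SMC3, holds sister chromatids together and folds interphase chromatin. Condensin I and II share SMC2 and SMC4 and differ in their kleisin and HEAT-repeat subunits, and they compact the mitotic chromosome. SMC5/6 acts mainly in DNA repair and replication. At anaphase, separase, until then held by securin, cleaves the cohesin kleisin RAD21, and topoisomerase II removes the tangles between sisters. MuvB recruits the activators B-MYB and FOXM1 to genes of late cell cycle, many of which carry a short promoter element named CHR (cell cycle genes homology region), often with CCAAT boxes upstream of it.

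Of the 34 genes, 33 had enough reads to be tested, 6 fell, 1 rose and 26 did not pass (edgeR quasi-likelihood test, adjusted p under 0.05 over 13355 genes). Over all genes tested, 5.17% were called lower and 4.61% higher, 9.79% in either direction. DESeq2 passed the same 6 lower genes and none higher, where 2.88% of its genes were lower and 1.65% higher, and limma-voom passed all 7, where 5.05% were lower and 4.28% higher. Those that fell were Mki67, Ncapd2, Top2a, Cdca2, Espl1 and Rad21, and the one that rose was Cdca5. Among 14 cohesin genes 1 fell, among 8 condensin genes 1 and among 4 tested SMC5/6 genes 0. With 5.17% of all genes lower, counts this small do not tell the complexes apart. None of the 6 genes for the SMC ATPases of these complexes (Smc1a, Smc2, Smc3, Smc4, Smc5 and Smc6) passed in edgeR, DESeq2 or limma-voom. Of these 6, 1, Smc4, had an unadjusted p under 0.05 in edgeR, as had 13 of the 33 tested members and 2833 of the 13355 genes tested. In bulk RNA, fewer cells in a cell cycle phase and less RNA per cell cannot be told apart.

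**Figure D1:**
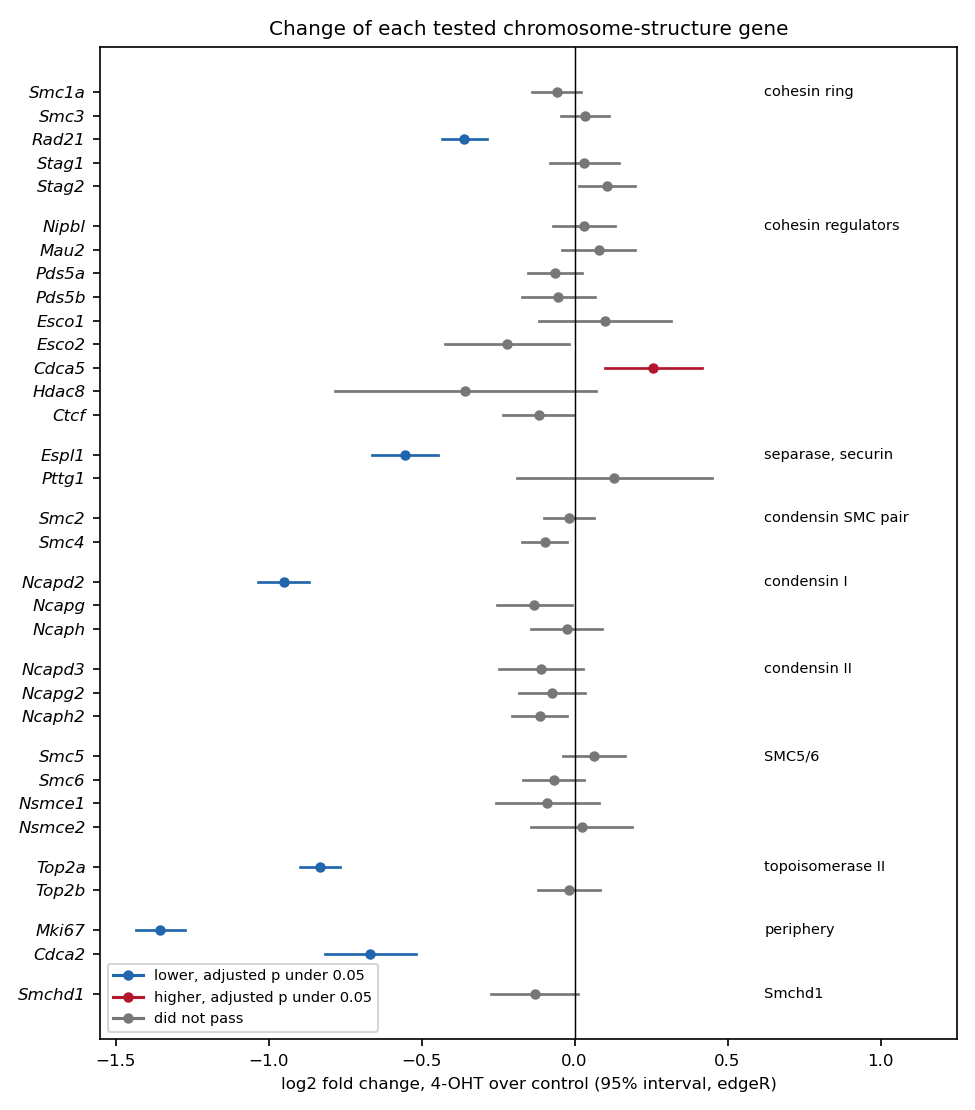
Log2 fold change of 4-OHT over control with its 95% interval for each of the 33 tested genes, grouped by complex (rows) and coloured by the edgeR call. Mki67, Ncapd2, Top2a, Cdca2, Espl1 and Rad21 lie left of 0, Cdca5 lies right of it, and the other 26 genes did not pass, Hdac8 with the widest interval.

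For 26 of the 34 genes the RefSeq table of GRCm38.p6 gave a promoter window of 250 bases before to 50 after the start site. The windows below show the 250 bases before the start, read 5′ to 3′ on the strand of the gene, with the CHR forms TTTGAA and TTCGAA on either strand in capitals. The first 4 belong to the genes that fell and are in the table, followed by the gene that rose, by a condensin I partner that did not pass and by the paralog of Top2a.
Ncapd2, chr6:125191587-125191836, minus strand: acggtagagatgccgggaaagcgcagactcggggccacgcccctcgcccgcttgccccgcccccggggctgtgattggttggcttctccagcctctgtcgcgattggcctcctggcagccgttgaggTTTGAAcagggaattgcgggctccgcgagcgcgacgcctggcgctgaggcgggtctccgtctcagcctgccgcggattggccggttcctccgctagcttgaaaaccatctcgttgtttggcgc
Top2a, chr11:99024190-99024439, minus strand: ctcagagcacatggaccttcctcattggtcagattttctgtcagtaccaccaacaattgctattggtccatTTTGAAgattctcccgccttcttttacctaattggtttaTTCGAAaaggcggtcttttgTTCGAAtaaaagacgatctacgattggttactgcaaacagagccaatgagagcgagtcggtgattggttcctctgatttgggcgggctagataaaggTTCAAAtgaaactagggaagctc
Mki67, chr7:135716380-135716629, minus strand: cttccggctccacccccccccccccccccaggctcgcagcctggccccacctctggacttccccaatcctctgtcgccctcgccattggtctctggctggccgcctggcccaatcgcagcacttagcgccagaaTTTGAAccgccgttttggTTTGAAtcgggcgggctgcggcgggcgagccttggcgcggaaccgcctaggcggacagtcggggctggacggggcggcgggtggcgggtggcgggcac
Espl1, chr15:102296043-102296292, plus strand: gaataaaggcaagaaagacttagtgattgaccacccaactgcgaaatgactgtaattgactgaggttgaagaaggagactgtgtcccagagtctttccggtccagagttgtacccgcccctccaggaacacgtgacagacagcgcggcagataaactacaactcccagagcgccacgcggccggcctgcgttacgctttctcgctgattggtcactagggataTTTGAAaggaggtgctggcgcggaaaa
Cdca5, chr19:6084847-6085096, plus strand: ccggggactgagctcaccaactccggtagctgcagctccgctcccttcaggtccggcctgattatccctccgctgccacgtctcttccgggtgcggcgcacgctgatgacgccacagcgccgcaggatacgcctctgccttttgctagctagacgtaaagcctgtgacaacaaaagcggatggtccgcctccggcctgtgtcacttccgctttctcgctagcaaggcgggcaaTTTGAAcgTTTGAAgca
Ncapg, chr5:45669675-45669924, plus strand: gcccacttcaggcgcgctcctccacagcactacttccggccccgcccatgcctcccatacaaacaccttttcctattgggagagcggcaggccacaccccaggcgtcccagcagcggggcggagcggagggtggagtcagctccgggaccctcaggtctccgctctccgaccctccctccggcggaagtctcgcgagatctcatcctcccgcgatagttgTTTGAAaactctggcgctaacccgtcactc
Top2b, chr14:16364956-16365205, plus strand: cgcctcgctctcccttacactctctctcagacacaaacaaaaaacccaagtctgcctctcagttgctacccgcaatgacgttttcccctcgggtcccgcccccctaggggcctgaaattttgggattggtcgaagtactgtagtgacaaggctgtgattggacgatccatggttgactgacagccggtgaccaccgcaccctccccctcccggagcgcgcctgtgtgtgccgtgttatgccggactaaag
RefSeq places the Ncapd2 start used here 514 bases inside the annotated span of the gene, and that of Mki67 71 bases inside. Of the genes not printed, the starts of Stag1 (45739 bases), Pttg1 (1482) and Smc5 (1323) lay further inside. So did the second windows of Ncapd3 (30251), Mau2 (13221) and Nsmce1 (3484). All 4 windows of genes that fell held a CHR form and a CCAAT box (CCAAT on either strand). Over the 27025 genes of the RefSeq promoter table, 21.7% held a CHR form and 41.1% held CCAAT. The share of all genes with both was not counted. Cdca5, which rose, held TTTGAA at positions -17 to -12 and -9 to -4 from the start and no CCAAT box. Ncapg held TTTGAA at -30 to -25 with a CCAAT box upstream of it, and Top2b held CCAAT boxes but no CHR form.

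In condensin I, 1 of 3 genes fell, where 5.17% of all genes tested were called lower. Ncapd2 (ENSMUSG00000038252, chromosome 6, 125168007 to 125192100), which encodes the HEAT-repeat subunit of condensin I, was at 138, 154 and 151 CPM in the 4-OHT libraries and at 283, 282 and 289.8 CPM in the control libraries. The groups were far apart, and the mean was 147 ± 8.55 CPM in 4-OHT and 285 ± 4.12 CPM in control libraries (SD, n = 3 each). The log2 fold change was -0.95 (SE 0.04, edgeR adjusted p = 2.16e-34), so the 4-OHT libraries kept 51.7% of the control level. By p, Ncapd2 ranked 5 of the 13355 genes. The other condensin I genes did not pass. Ncapg, a second HEAT-repeat subunit, was at 77.7, 66.8 and 71.4 CPM in 4-OHT and at 77.0, 79.7 and 79.7 CPM in control libraries. Its groups overlapped through 4-OHT replicate 1 (log2 fold change -0.13, 95% interval -0.25 to -0.01, edgeR adjusted p = 0.195). The RefSeq span of Ncapg overlaps that of Lcorl, which had a log2 fold change of -0.34 (edgeR adjusted p = 0.013), and reads of the overlap may be counted for either. Ncaph, the kleisin, stood at 92.6, 84.2 and 90.3 CPM in 4-OHT and at 84.9, 98.4 and 88.6 CPM in control libraries. Here the groups were interleaved (log2 fold change -0.03, 95% interval -0.14 to 0.09).

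Because reads of different genes in 1 library share its depth and scaling, the ratio of their reads does not depend on the normalization. For each Ncaph read there were 1.49, 1.82 and 1.68 Ncapd2 reads in the 4-OHT libraries, against 3.34, 2.87 and 3.27 in the control libraries. Against its condensin II counterpart Ncapd3, Ncapd2 had 2.64, 2.65 and 2.94 reads per read in 4-OHT and 4.91, 4.88 and 4.93 in control libraries. Both ratios separated the groups without overlap. The 11 pairs of genes for which such ratios were formed were chosen after their values were seen, so the ratios here and below are given as a description with no test. How often a ratio separates the groups over all gene pairs was not counted.

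The shared condensin subunits and those of condensin II all lay a little below control without passing. Smc4 was at 295, 298 and 298 CPM in 4-OHT and at 319, 304 and 331 CPM in control libraries. Its groups did not overlap, but the difference was small (log2 fold change -0.10, edgeR adjusted p = 0.081), and it passed without control replicate 2 (adjusted p = 0.030). Its partner Smc2 was at 208 ± 5.52 CPM in 4-OHT and 211 ± 8.35 CPM in control libraries (SD, n = 3 each), with a 95% interval of the log2 fold change of -0.10 to 0.06. In condensin II, Ncaph2, the kleisin, was at 154, 148 and 151 CPM in 4-OHT against 157, 165 and 168 CPM in control libraries. These groups were also apart, by a log2 fold change of -0.11 (edgeR adjusted p = 0.104). The HEAT-repeat subunit gene Ncapd3 was at 52.2, 58.0 and 51.4 CPM in 4-OHT and 57.7, 57.9 and 58.8 CPM in control libraries, with overlap through 4-OHT replicate 2 (log2 fold change -0.11). Ncapg2, the counterpart of Ncapg, was at 93.9, 102 and 98.4 CPM in 4-OHT and 102, 98.4 and 109 CPM in control libraries, which overlapped (log2 fold change -0.07). All 8 condensin genes thus had a log2 fold change below 0, with a median of -0.10. Of the 13355 genes tested, 6657 lay below 0 and the median was 0.0005. The sign depended on single libraries for Ncaph and Smc2. Ncaph was at 0.01 without 4-OHT replicate 2 and at 0.04 without control replicate 2. Smc2 was at 0.0049 without control replicate 3.

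**Figure D2:**
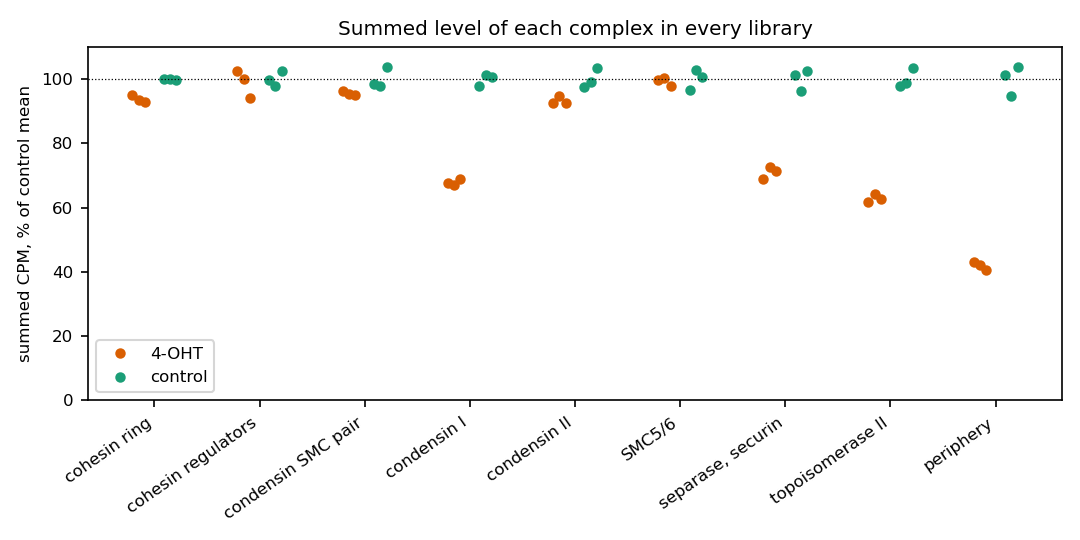
Summed CPM of the genes of each complex in every library, as a percent of the control mean, with 3 points of 4-OHT left of 3 points of control. The condensin I sum stands apart from the condensin SMC pair and condensin II, and the periphery pair is lowest, at a mean of 42.0% of control. Within condensin I, Ncapd2 was at 51.7% of control, Ncapg at 91.3% and Ncaph at 98.2%. In the periphery pair, Mki67 averaged 438 CPM and Cdca2 58.9 CPM in control libraries.

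Summed over its 3 own subunits, condensin I was at 308, 304 and 313 CPM in the 4-OHT libraries and at 445, 460.2 and 458 CPM in the control libraries, of which Ncapd2 alone averaged 147 CPM in 4-OHT and 285 CPM in control libraries. The condensin II sum was at 300.3, 308 and 301 CPM in 4-OHT and at 317, 322 and 336 CPM in control libraries. As a percent of control the means were 67.8% for condensin I, 93.3% for condensin II and 95.6% for the SMC pair. These sums describe the members and were not tested.

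In the cohesin ring, 1 of 5 genes fell, where 5.17% of all genes tested were called lower. Rad21 (ENSMUSG00000022314, chromosome 15, 51962604 to 51993538), the kleisin and the substrate of separase, was at 266, 252 and 254 CPM in the 4-OHT libraries and at 333, 328 and 329 CPM in the control libraries. The groups were well separated, and the fall came to 22.1% (log2 fold change -0.36, SE 0.04, edgeR adjusted p = 2.69e-13). When the test asked for more than a 1.2-fold change it did not pass (edgeR glmTreat adjusted p = 0.068), whereas the other 5 genes that fell did, where 1.07% of all genes were lower and 0.314% higher by that test. For each Smc3 read there were 1.06, 1.04 and 1.03 Rad21 reads in 4-OHT libraries, against 1.42, 1.31 and 1.39 in control libraries, again without overlap.

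The other 4 ring genes did not pass. Smc1a was at 197 ± 2.87 CPM in 4-OHT and 206 ± 0.854 CPM in control libraries, and Smc3 at 247 ± 5.39 CPM in 4-OHT and 241 ± 9.11 CPM in control libraries (SD, n = 3 each). The intervals of their log2 fold changes were -0.14 to 0.02 and -0.04 to 0.11. The alternative STAG subunits, which bind RAD21, had log2 fold changes of 0.03 for Stag1 (88.0, 93.96 and 87.6 CPM in 4-OHT and 87.3, 85.7 and 90.7 CPM in control libraries) and 0.11 for Stag2. Stag2 was higher in each 4-OHT library (162, 161 and 156 CPM) than in each control library (155, 141 and 149 CPM), yet its edgeR adjusted p was 0.148.

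Among the regulators of cohesin, 1 of 9 was called, near the 9.79% of all genes tested that were called in either direction. Cdca5 (ENSMUSG00000024791, chromosome 19, 6085097 to 6091773) encodes sororin, which protects cohesin on replicated chromatin from release. It was at 51.5, 53.1 and 48.0 CPM in the 4-OHT libraries and at 49.6, 38.8 and 39.3 CPM in the control libraries. The groups overlapped, since control replicate 1 lay within the 4-OHT range. The log2 fold change was 0.26 (SE 0.08, edgeR adjusted p = 0.022), and the call depended on single libraries. It was lost without 4-OHT replicate 1 (adjusted p = 0.063), 4-OHT replicate 2 (0.141), control replicate 2 (0.181) or control replicate 3 (0.182), and in DESeq2 (0.246). Cdca5 reads per Esco2 read were 2.14, 2.1 and 1.95 in 4-OHT and 1.57, 1.59 and 1.301 in control libraries, which did not overlap.

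Esco2, the acetyltransferase gene of S phase whose product makes cohesin cohesive, was at 24.1, 25.3 and 24.6 CPM in 4-OHT against 31.7, 24.4 and 30.2 CPM in control libraries. Control replicate 2 lay among the 4-OHT values, and no call was made (log2 fold change -0.22, edgeR adjusted p = 0.187). Its paralog Esco1 had a value of 0.10, with an interval of -0.12 to 0.31. Of the pair that loads cohesin onto DNA, Nipbl averaged 119 ± 7.50 CPM in 4-OHT and 117 ± 5.67 CPM in control libraries, and Mau2 81.6 ± 5.54 CPM in 4-OHT and 77.3 ± 3.81 CPM in control libraries (SD, n = 3 each). Both overlapped between groups. Of the PDS5 genes, whose products bind the ring and govern its release and acetylation, Pds5a had a log2 fold change of -0.06 with overlap. Pds5b was at 74.4, 73.9 and 73.0 CPM in 4-OHT and 75.0, 77.6 and 77.0 CPM in control libraries, apart by a narrow gap and not called (log2 fold change -0.05). Hdac8, the SMC3 deacetylase gene, had few reads (22 to 35 in 4-OHT and 30 to 44 in control libraries), and its interval of -0.78 to 0.07 leaves its level poorly determined. Ctcf, which encodes the insulator protein where cohesin stops, was at 110.4, 101 and 92.3 CPM in 4-OHT and 99.3, 115 and 116 CPM in control libraries. It was not called (log2 fold change -0.12, edgeR adjusted p = 0.235), except without 4-OHT replicate 1 (adjusted p = 0.049).

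Of the separase and securin pair, the separase gene fell and the securin gene did not pass. Espl1 (ENSMUSG00000058290, chromosome 15, 102296254 to 102324357), which encodes separase, was at 81.2, 84.0 and 82.8 CPM in the 4-OHT libraries and at 124, 115 and 125 CPM in the control libraries. The groups did not overlap, and 68.1% of the control level was kept (log2 fold change -0.55, SE 0.05, edgeR adjusted p = 3.08e-14). Pttg1, the securin gene, had only 51 to 67 reads a library. It was at 9.16, 11.3 and 10.7 CPM in 4-OHT and at 8.73, 10.5 and 9.26 CPM in control libraries, which overlapped (log2 fold change 0.13, 95% interval -0.19 to 0.45). Espl1 reads per Pttg1 read were 8.87, 7.43 and 7.75 in 4-OHT and 14.2, 11.0 and 13.5 in control libraries, so this ratio too separated the groups.

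SMC5/6 showed no call in any direction. Smc5 was at 125, 128 and 115 CPM in 4-OHT and 116, 119.9 and 116 CPM in control libraries, which overlapped (log2 fold change 0.06, 95% interval -0.04 to 0.16). Smc6 was at 114, 114 and 116 CPM in 4-OHT and 118, 124 and 120.3 CPM in control libraries, each 4-OHT value below each control value (log2 fold change -0.07, 95% interval -0.17 to 0.03). Nsmce1, a RING-domain subunit gene, was at 38.9 ± 1.92 CPM in 4-OHT and 41.4 ± 5.86 CPM in control libraries, and Nsmce2, the SUMO ligase gene, at 38.2 ± 0.549 CPM in 4-OHT and 37.6 ± 1.08 CPM in control libraries (SD, n = 3 each). None of these 4 genes had an unadjusted p under 0.05 in edgeR. Of the condensin genes 4 of 8 did, of the cohesin genes 5 of 14 and of all genes tested 2833 of 13355. None of the 4 SMC5/6 genes passed in DESeq2 or limma-voom. Nsmce4a, a further subunit gene, is listed at 0 reads in all 6 libraries and was not tested. The same holds for Ndnl2, a related SMC5/6 gene outside the 34. The values here therefore do not cover these subunits, and why they have no reads was not tested. As a sum, the 4 tested genes were at 316, 318 and 311 CPM in 4-OHT and 306, 326 and 319 CPM in control libraries, which overlapped.

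Of the topoisomerase II paralogs, Top2a fell and Top2b did not pass. Top2a (ENSMUSG00000020914, chromosome 11, 98992947 to 99024199), the form of dividing cells, was at 361, 379 and 356 CPM in the 4-OHT libraries and at 633, 641 and 676 CPM in the control libraries. Every 4-OHT library lay far below every control library, at 56.2% of control on the fitted scale (log2 fold change -0.83, SE 0.03). Top2b, which is also made in cells that do not divide, was at 115, 115 and 127 CPM in 4-OHT and at 119.99, 119 and 122 CPM in control libraries. Its groups overlapped (log2 fold change -0.02, 95% interval -0.12 to 0.08). Top2a reads per Top2b read were 3.14, 3.29 and 2.81 in 4-OHT against 5.28, 5.37 and 5.54 in control libraries, with no overlap.

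**Figure D3:**
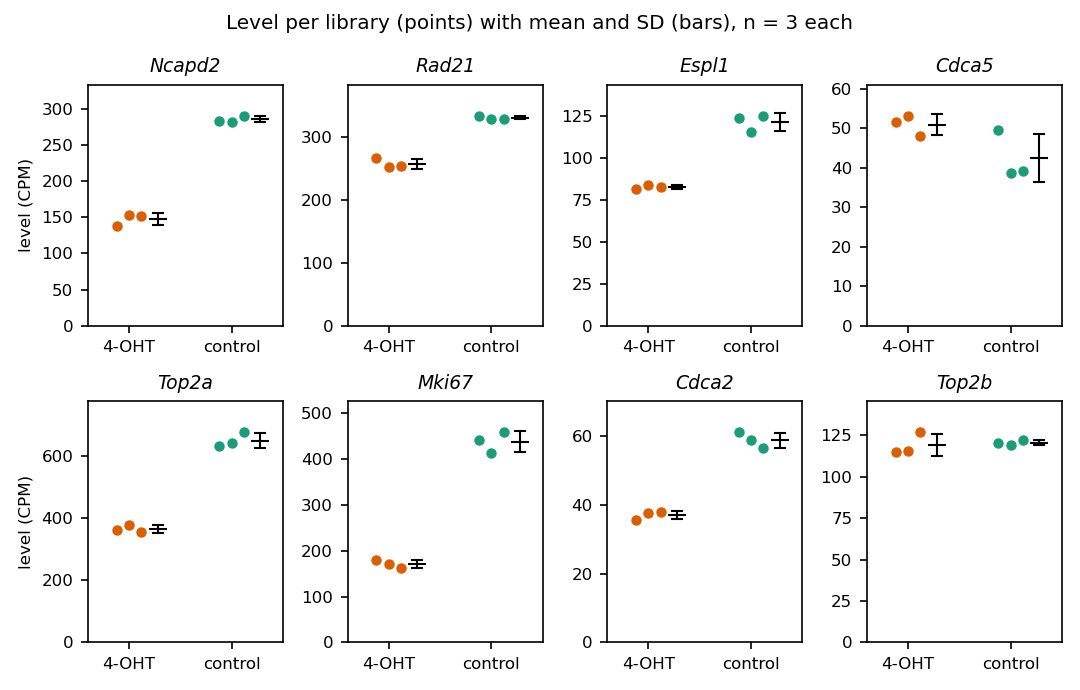
Level in CPM of each called gene and of Top2b in every library (points), with the group mean and SD (bar), 4-OHT left of control, all axes from 0. Apart from Cdca5 and Top2b, each panel shows 3 points of 4-OHT below all 3 of control.

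Both member genes of the chromosome periphery fell, and Mki67 had the lowest log2 fold change of the 33 genes. Whether the periphery as a class changed was not tested. Of 13 related periphery genes tested, 2 fell, 1 rose and 10 did not pass, with a median log2 fold change of -0.02. Over all genes tested, 5.17% were called lower and 4.61% higher. Mki67 (ENSMUSG00000031004, chromosome 7, 135689784 to 135716450) encodes Ki-67, a surfactant-like coat of mitotic chromosomes and a common marker of dividing cells. It was at 179, 172 and 163 CPM in the 4-OHT libraries and at 443, 413 and 459 CPM in the control libraries. The highest 4-OHT value was under every control value, and Mki67 had the smallest p of the 13355 genes tested (log2 fold change -1.35, SE 0.04). Cdca2 (ENSMUSG00000048922, chromosome 14, 67673180 to 67715841) encodes Repo-Man, which brings the phosphatase PP1 to chromatin as cells leave mitosis. Its level was 35.6, 37.6 and 38.0 CPM in 4-OHT and 61.1, 58.9 and 56.7 CPM in control libraries. These groups did not overlap either (log2 fold change -0.67, SE 0.07, edgeR adjusted p = 1.33e-11). The read ratio of Mki67 to Cdca2 was 5.03, 4.57 and 4.29 in 4-OHT and 7.25, 7.01 and 8.08 in control libraries, with no overlap. Smchd1, a non-canonical SMC gene of X inactivation, was at 53.1, 48.9 and 48.0 CPM in 4-OHT and 52.0, 58.4 and 53.8 CPM in control libraries (log2 fold change -0.13, edgeR adjusted p = 0.292), and its groups overlapped.

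**Figure D4:**
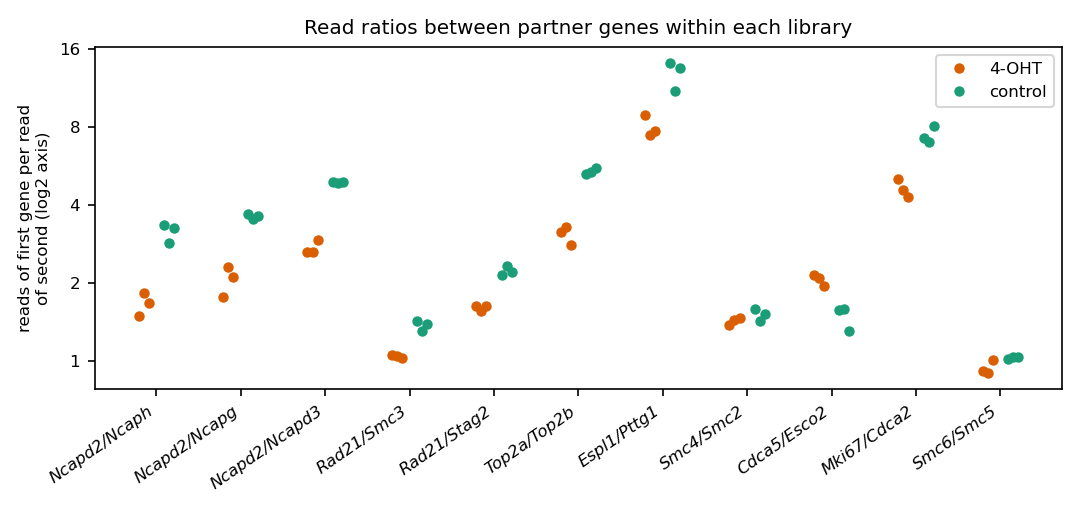
Reads of the first gene per read of the second within each library, on a log2 axis, for 11 pairs of partner or paralog genes chosen after their values were seen, 4-OHT left of control. In 9 pairs a visible gap parts the 4-OHT from the control points, whereas Smc4/Smc2 overlaps and Smc6/Smc5 nearly touches. In each of these 9 the first gene was itself called in edgeR, so the gap adds nothing about the second gene. The share of all gene pairs with such a gap was not counted.

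Across the 34 genes, reads made up 0.39%, 0.39% and 0.38% of the 4-OHT libraries and 0.467%, 0.465% and 0.483% of the control libraries. The largest drops in mean CPM, control to 4-OHT, were in Top2a (650 to 365), Mki67 (438 to 171) and Ncapd2 (285 to 147). This share thus does not describe a fall of all members. All 3 4-OHT values lay below all 3 control values for 11 of the 33 tested genes, and above them for 1, where 12.2% and 12.1% of all genes tested did so. Median log2 fold changes were -0.01 for the 14 cohesin genes, -0.10 for the 8 condensin genes and -0.02 for the 4 tested SMC5/6 genes. Differences between complexes were not tested. For 21 of the 26 genes that did not pass, the 95% interval lay within a 1.2-fold change either way. The exceptions were Esco1, Esco2, Hdac8, Pttg1 and Smchd1. In the authors' deposited table, 6 of the 33 genes were lower and 1 higher at an FDR under 0.05, and all 7 were called here too. There Ncapd2 stood at -0.95, Rad21 at -0.36 and Cdca5 at 0.25 on the log2 scale, against 3.9% of genes called lower and 3.24% higher in the authors' deposited table.

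Of 34 further genes linked to these complexes, 28 were tested, 5 fell, 2 rose and 21 did not pass. Their median log2 fold change was -0.02. Over all genes tested, 5.17% were called lower and 4.61% higher. Sgol1, which encodes the shugoshin that shields centromeric cohesin, was at 40.7, 37.6 and 38.4 CPM in 4-OHT and at 57.5, 56.3 and 57.1 CPM in control libraries. Its groups were apart (log2 fold change -0.55, edgeR adjusted p = 8.67e-09). Kif4, a chromokinesin gene whose product works beside condensin, was at 48.5, 51.8 and 47.5 CPM in 4-OHT and 78.9, 83.5 and 71.8 CPM in control libraries. It too showed no overlap (log2 fold change -0.66, edgeR adjusted p = 1.77e-13). Wapal, the gene of the factor that releases cohesin, did not pass, at 129 ± 4.07 CPM in 4-OHT and 129 ± 3.26 CPM in control libraries (SD, n = 3 each).

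The remaining calls among the related genes were smaller. Npm1, a nucleolar protein gene that coats mitotic chromosomes, changed by -0.14 (edgeR adjusted p = 0.0014), Rrp1b, a further nucleolar gene, by -0.20 and the chromokinesin gene Kif22 by -0.17 on the log2 scale. Ppp1cb, a PP1 subunit gene, changed by 0.15 and Ankrd32, whose product (SLF1) links SMC5/6 to sites of damage, by 0.28. Ankrd32 was at 52.6, 39.6 and 38.5 CPM in 4-OHT and 35.9, 36.2 and 35.8 CPM in control libraries, so that 4-OHT replicate 1 stood apart, and without it the value was 0.12 (adjusted p = 0.546). It was also lost without control replicate 1 (0.119), 2 (0.074) or 3 (0.115). Kif22 did not pass once 4-OHT replicate 1 (adjusted p = 0.058), 4-OHT replicate 2 (0.160), control replicate 1 (0.093) or control replicate 3 (0.179) was left out. Rrp1b did not pass when 4-OHT replicate 1 (0.131), 4-OHT replicate 3 (0.075) or control replicate 3 (0.231) was missing, nor Ppp1cb in the absence of 4-OHT replicate 3 (0.069). None of Rrp1b, Kif22, Ppp1cb and Ankrd32 passed in DESeq2 (adjusted p 0.079 to 0.283). Ankrd32 also did not pass in limma-voom (adjusted p = 0.065), nor Kif22 in edgeR when libraries were scaled by their totals alone (adjusted p = 0.051). Against a 1.2-fold change none of these 4 genes, nor Npm1, passed.

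The motifs printed above were also counted over the 26 genes with a window. TTTGAA or TTCGAA was found in 16 of the 26 genes, and in 21.7% of the 27025 genes of the RefSeq promoter table. CCAAT was found in 13 of the 26 (41.1% of all genes), the MYB core AACGG in 7 (19.6%) and the TEAD form GGAATG in 1 (16.6%). The E2F-like form TTTNNCGC, where N is any base, was found in 9 (5.93% of all genes). Each was searched on both strands. A CHR form was present in all 4 of the genes that fell and had a window, in Cdca5, and in 11 of the 20 that did not pass. Among these 11, Ncapd3 held it only in its second window, whose start lies 30251 bases inside the gene span. CHR form and CCAAT box occurred together in 4 of these 20, namely Pds5b, Hdac8, Smc2 and Ncapg. In Ncapd2 the AACGG match at -132 to -128, on the other strand, stands 4 bases before TTTGAA at -123 to -118, and in Mki67 a reverse-strand AACGG match at -107 to -103 lies between the copies of TTTGAA at -116 to -111 and -98 to -93. Among all tested genes with a window, a CHR form was present in 139 of 467 called lower (29.8%), 52 of 426 called higher (12.2%) and 1278 of 8118 not called (15.7%). These matches are a description of letters, with no test.

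**Figure D5:**
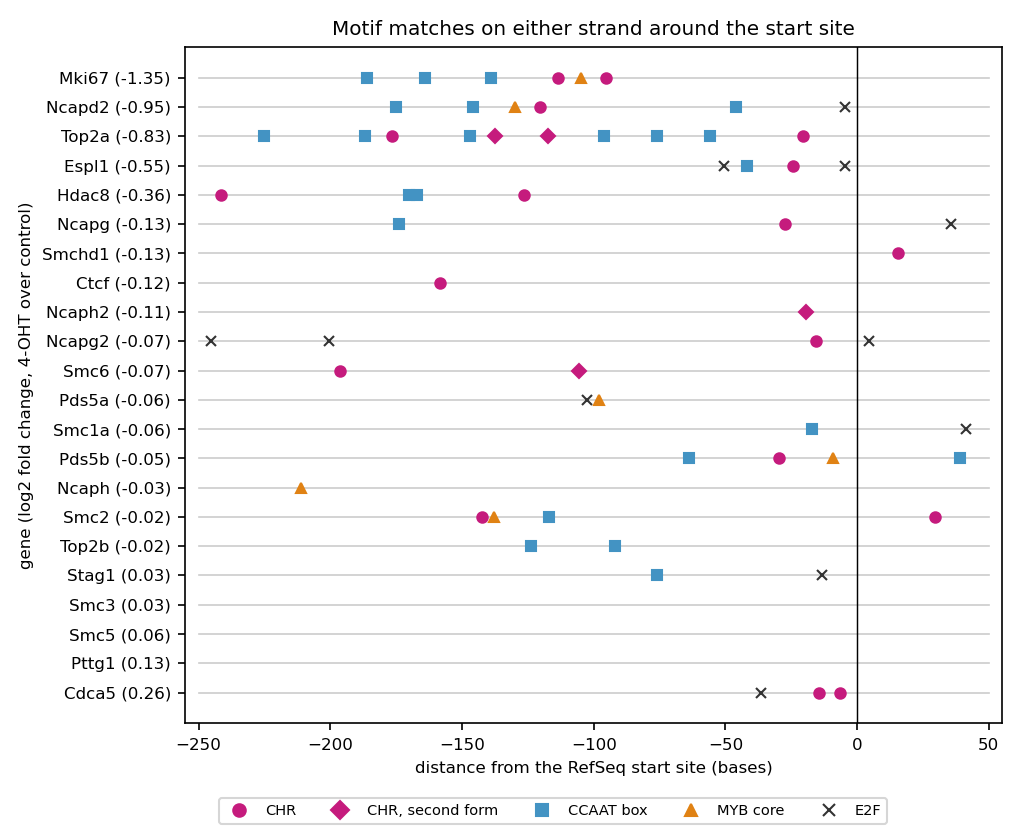
Positions of motif matches on either strand relative to the RefSeq start site (0), for the 22 tested genes with 1 window, ordered from the lowest to the highest log2 fold change (in brackets). The 4 top genes that fell carry both CHR forms (magenta) and CCAAT boxes (blue) before the start, but CHR forms also appear in many rows near 0 and in Cdca5. Marks named E2F are matches to TTTNNCGC with any base at N.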

How the data were processed

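Of 33 samples, 27 are ChIP-seq and were not analysed here, which leaves the 6 RNA-seq libraries, 3 per group as labelled. The deposited matrix gives raw read counts, whole numbers, for each Ensembl ID. The authors' comparison table gives log2 fold change and log2 mean CPM, and a p-value and FDR per gene, per the file headers. The submitters' processing notes name, without roles, edgeR, Bowtie2, bedtools 2.26.0, Bowtie 1.1.2, TopHat2 2.1.0 and, among the builds, mm10 and GRCm38.p6. How reads were counted, and whether by strand, was not given in the sources used here. By RefSeq spans, 18 of the 34 genes overlap another gene, whose reads could therefore be mixed with theirs.

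Of 38951 lines, 27 repeated an ID with the same counts and were dropped. In R 4.3.3, edgeR 4.0.16 (TMM, filterByExpr with minimum count 10 and minimum total 15, robust quasi-likelihood F test, no replicate block) compared 4-OHT with control over 13355 genes, with Benjamini-Hochberg adjustment at 0.05. Intervals at 95% come from the coefficient and the F statistic. CPM uses TMM-scaled library sizes. On simulated counts for these genes the test recovered 58% of 1.25-fold, 78% of 1.5-fold and 96% of 2-fold changes (50 genes each) and called 12 of 13155 unchanged genes. Libraries of 1 group were not copies of each other (chi-square over degrees of freedom 1.26 to 1.48), and none were merged. This check cannot tell separate cultures from repeat libraries of 1 culture. Alternatives were other scalings, filters, leaving out each library, a replicate block, DESeq2 1.42.0, limma-voom 3.58.1 and glmTreat against a 1.2-fold change. All 34 members are named, with called related genes, Wapal and Ndnl2. Members, lists and motifs were chosen with earlier results of these data known.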

Additional observations from a re-analysis of the deposited data

How the results depend on the processing

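Under 14 alternatives, the 6 genes called lower (Mki67, Ncapd2, Top2a, Cdca2, Espl1, Rad21) passed in each, except Rad21 against a 1.2-fold change (5 passed). Leaving out 1 library in turn gave 6 to 7 members lower and 0 to 1 higher, 1 to 2 cohesin genes lower and 0 to 1 higher, 1 to 2 condensin genes lower, and 508 to 643 genes lower and 403 to 542 higher over all tested. DESeq2 called 0 members higher and 0 cohesin genes higher, with 362 genes lower and 208 higher over all tested. Against a 1.2-fold change 0 members were higher, and 0 cohesin genes lower and 0 higher. The cause of these shifts was not tested. With a replicate block the members remained at 6 lower and 1 higher, with 665 genes lower and 579 higher over all tested. Deviations of same-numbered libraries correlated at 0.021, -0.013 and -0.094, so the numbers were not taken as pairs. No result of the 33 tested genes was reversed where it was called, 453 of their values kept their side of the threshold, 7 lost it and 2 gained it. Depth limits Hdac8, Pttg1 and Esco1, whose intervals are wide.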
